A study of Mus musculus with 2 samples.

Results

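The 39 genes described here move calcium ions across membranes or control the stores that hold them. They were taken from a fixed list of symbols that covers voltage-gated calcium channels, release channels of the endoplasmic reticulum, store-operated entry, pumps, exchangers, TRP and mechanically gated channels and the mitochondrial uniporter. They were matched by RefSeq accession on 1 Agilent mouse array design, on which 20433 genes had a symbol. Of the 39, 38 had a probe and 33 were measured, meaning that the probe was well above background by the scanner's flag on at least 1 of the 2 arrays. A signal without that flag is said here to lie at background. Of those 33, 31 were seen on both arrays, Cacna2d3 only on the GFP array and Cacnb2 only on the HES1 array. Cacna1b, Cacna1d, Ryr1, Ryr2 and Trpc6 were on the array but not well above background, and no probe matched Ryr3.

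The samples were 2 stable lines of ATDC5, a mouse chondrocyte cell line used to model cartilage differentiation. Both lines were made by lentiviral transduction, 1 labelled as overexpressing GFP, a fluorescent protein used as control, and 1 as overexpressing HES1, a transcriptional repressor downstream of Notch. Total RNA was taken from each after 3 days of monolayer culture on 60 mm dishes and hybridised to 1 single-colour array. The labels do not say whether a line is 1 clone, and 1 array per group leaves no replicate, so no test was run and no p-value is given. The comparison answers how calcium-handling transcripts differed between these RNA samples. A gene was counted as higher or lower where its signals differed at least 2-fold. Signals are given in scanner units, scaled so that each array has a 75th percentile of 1057.2, and they can be compared between arrays for a probe but not between probes. A signal summed over markers is therefore weighted towards its brightest probes. In bulk RNA of this kind, fewer cells that express a gene and less RNA per cell cannot be told apart.

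The 2 arrays were alike in detection, with 54.6% (GFP) and 56.6% (HES1) of spots well above background. The single Hes1 probe lay at background on both arrays (10.2 and 10.3), and the labels do not say which part of the gene the transgene holds, so the probe checked neither label. Of 16 chondrocyte markers, 11 were seen on each array. Col2a1 had 13796 and 7379, Acan 178 and 137 and Sox9 3683 and 3227 in the GFP and HES1 samples. The 12 measured chondrocyte markers had a median log2 difference of -0.33. Of these 12, 10 were below 0 (83.3%), against 55.0% of all measured genes. Skeletal muscle genes, which could bring muscle calcium channels with them, were seen for 4 of 16 markers with GFP and 6 with HES1 (summed signals 1572 and 1551). Myod1, Myog and Ckm lay at background in both. Acta1 (1043 and 863), Tnnc2 (143 and 245), Actn3 (136 and 70.1) and Tnni2 (94.6 and 88.4) were seen in both. Myh8 and Tnnt3 were seen with HES1 alone. Cardiac markers were seen for 5 of 8 in each sample (summed signals 568 and 1202, a gap set by Tnnt2 at 138 and 806, while Tnni3 went from 180 to 91.3 and the list's median log2 difference was 0.34), and smooth muscle markers for 4 of 6 in each (51195 and 49968). Neuron markers were seen for 5 of 12 with GFP and 8 with HES1, with summed signals of 40911 and 23516, a gap set by Snap25 at 35679 and 16524. The 8 measured neuron markers otherwise leaned the other way, with a median log2 difference of 0.61 (0.29 by bounds), 5 of 8 above 0, 3 past 2-fold upward (1 by bounds) and 1 downward. Osteoblast markers were seen for 7 of 9 in each sample, so detection alone did not set chondrocyte markers apart. All 7 measured osteoblast markers were below 0 on the log2 scale of HES1 minus GFP, against 55.0% of all measured genes. Their summed signals were 24993 and 14104. Macrophage markers were seen for 3 and 4 of 8 (summed signals 50287 and 25398). That gap was set by the brightest Itgam probe, at 47669 and 22759, while the other Itgam probes gave 0.25 and 0.47. The macrophage list's median log2 difference was -0.04. Adipocyte markers were seen for 2 of 5 in each sample. The part of these marker differences in the results below was not tested.

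Resting cells keep cytosolic calcium low by pumping it out across the plasma membrane and into the endoplasmic reticulum. Signals open channels of the plasma membrane or release channels of the store, and an emptied store is sensed by STIM proteins, which then open ORAI channels to refill it. In chondrocytes, calcium entry through TRPV4 and PIEZO channels responds to mechanical load and osmotic change, and voltage-gated channels have been implicated in cartilage growth and in the response to loading.

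Among the 33 measured genes, HES1 cells had higher signals for 3 and lower signals for 3 by 2-fold or more, and 27 lay within 2-fold. Over all 14273 measured genes, 11.1% passed 2-fold upward, 4.95% downward and 16.0% in either direction, so the list's shares of 9.09% in each direction stood near the background for higher genes and above it, on 3 genes, for lower genes. The genes past 2-fold on the lower side were Trpv4, an osmotic and mechanical sensor channel, Slc8a3, a sodium/calcium exchanger, and Cacna2d3, an accessory subunit of voltage-gated channels. On the higher side they were Cacnb4 and Cacnb2, which encode cytoplasmic beta subunits of voltage-gated channels, and Cacna1h, a T-type pore subunit. The split of 3 higher and 3 lower became 4 and 2 after a loess fit and 2 and 3 after quantile normalization. Over all 14273 genes, the counts of 1582 higher and 707 lower became 1752 and 505 after loess, and 1492 and 786 after quantile normalization. Under a normexp background correction the list's split was 0 higher and 1 lower, with Trpv4 the gene that kept its place. Under normexp, 850 of all genes were higher and 339 lower. With the bound in place of the measured value for the 2 genes seen on 1 array, the list's split was 2 higher and 3 lower, against 9.49% and 4.47% of all genes.

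**Figure D1:**
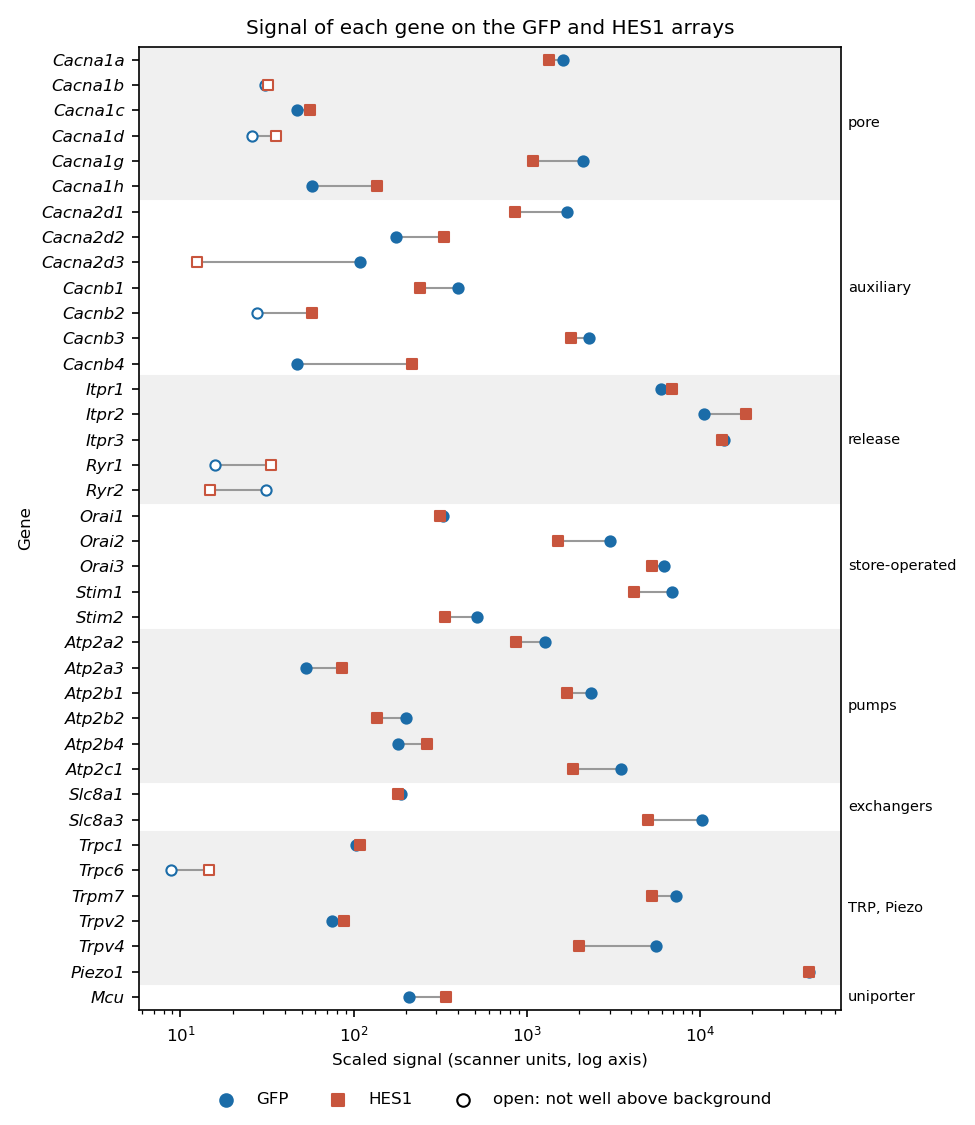
Scaled signal (scanner units, log axis) of the 38 genes with a probe on the GFP array (circles) and the HES1 array (squares), grouped by role, with 1 probe per gene. Open symbols mark signals not well above background. The widest gaps with both symbols filled are those of Cacnb4, from 47.4 to 216, and Trpv4, from 5565 to 1987.

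The start regions of some genes at either end of the list are shown because the overexpressed protein is a DNA-binding repressor. HES1 is known to bind the N box, CACNAG, and the class C site, CACGCG. Both strands of the 250 bases before each annotated start were searched, using RefSeq promoter sequences of build GRCm38.p6. The lowest 4 and highest 2 log2 differences among measured genes with a single listed start are printed 5′ to 3′ on the gene's strand, with matches to either motif in capitals.
Cacna2d3: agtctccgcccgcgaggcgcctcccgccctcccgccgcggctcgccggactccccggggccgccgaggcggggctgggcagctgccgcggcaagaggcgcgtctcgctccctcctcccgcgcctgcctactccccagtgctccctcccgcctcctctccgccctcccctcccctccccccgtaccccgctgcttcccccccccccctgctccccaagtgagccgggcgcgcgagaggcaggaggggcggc
Trpv4: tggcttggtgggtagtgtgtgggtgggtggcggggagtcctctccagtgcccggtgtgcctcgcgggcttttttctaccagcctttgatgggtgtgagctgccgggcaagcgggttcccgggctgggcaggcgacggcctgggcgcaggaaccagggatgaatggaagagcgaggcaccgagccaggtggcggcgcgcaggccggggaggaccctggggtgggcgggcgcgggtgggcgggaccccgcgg
Slc8a3: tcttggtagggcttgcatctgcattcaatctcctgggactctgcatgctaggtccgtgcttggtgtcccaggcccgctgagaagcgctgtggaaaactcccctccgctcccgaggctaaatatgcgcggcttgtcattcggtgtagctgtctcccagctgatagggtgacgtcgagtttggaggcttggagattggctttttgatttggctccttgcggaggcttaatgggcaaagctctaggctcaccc
Orai2: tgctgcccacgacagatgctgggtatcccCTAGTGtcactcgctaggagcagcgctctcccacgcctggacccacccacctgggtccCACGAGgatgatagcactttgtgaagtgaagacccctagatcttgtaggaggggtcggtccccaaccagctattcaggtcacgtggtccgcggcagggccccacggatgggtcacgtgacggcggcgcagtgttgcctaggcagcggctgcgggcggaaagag
Itpr2: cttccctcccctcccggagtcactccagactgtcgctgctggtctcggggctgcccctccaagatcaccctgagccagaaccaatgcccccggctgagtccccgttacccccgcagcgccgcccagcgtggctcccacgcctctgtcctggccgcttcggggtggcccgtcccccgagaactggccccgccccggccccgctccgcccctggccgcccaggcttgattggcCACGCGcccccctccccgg
Cacna2d2: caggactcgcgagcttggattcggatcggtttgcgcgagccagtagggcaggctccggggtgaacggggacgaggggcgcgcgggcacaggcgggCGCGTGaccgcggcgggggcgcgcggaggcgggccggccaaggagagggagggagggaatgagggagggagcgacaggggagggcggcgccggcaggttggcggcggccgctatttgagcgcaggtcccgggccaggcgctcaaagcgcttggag
These windows lie at chr14:29721865-29722114 (minus strand), chr5:114658422-114658671 (minus), chr12:81333181-81333430 (minus), chr5:136170657-136170906 (minus), chr6:146502224-146502473 (minus) and chr9:107399630-107399879 (plus). The windows of Cacna2d3, Trpv4 and Slc8a3, the 3 genes past 2-fold lower, held no match to either motif. The Orai2 window held 2 N boxes, which begin 221 and 163 bases before the start. Class C sites stood in the windows of Itpr2, 19 bases before the start, and Cacna2d2, 155 bases before it, and both genes had higher signals in the HES1 sample. Among measured genes not printed, they also stood in windows of Stim2 (-0.63), Atp2b2 (-0.57) and Itpr3 (-0.03). Windows of Cacnb4 (2.19) and Cacnb2 (1.06) held them too. The genes past 2-fold higher are not printed: Cacnb4 and Cacnb2 had several listed starts, and Cacna1h had no listed start and was not searched. Whether matches go with direction was not tested.

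Over the whole list, 33 genes had 47 start windows, some of which overlap or belong to the same gene. An N box was found in 15 of the 47 (31.9%), against 36.7% of 32851 windows of the same length in the whole RefSeq table. A class C site was found in 10 of the 47 (21.3%), against 7.62% of all windows. Among windows of measured genes, 14 of 41 (34.1%) held an N box and 7 of 41 (17.1%) a class C site. The list's windows were also richer in G and C, with a median of 63.6% against 52.4%, and held a median of 17 CpG pairs against 6, and the part of base composition in the class C share was not tested. A match describes these letters in this window and does not show binding.

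Voltage-gated channels are built from a pore subunit that sets the current type and from alpha2delta and beta subunits that carry the pore to the membrane and tune its gating. Of 6 pore subunits, 4 were measured. Cacna1h, a T-type pore that opens at low voltage, had a signal of 57.2 with GFP and 136 with HES1, which is 2.37-fold higher, with a log2 difference of 1.25 and a technical error of 0.33. That place past 2-fold was lost under normexp (0.37) and as the median of both Cacna1h probes (0.98). A second Cacna1h probe, assigned to another transcript record, was seen only with HES1, at 59.2, and gave a bound of 1.55-fold higher. Both Cacna1h probes were dim, and the HES1 sample was the higher one by both.

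Cacna1g, the other T-type pore gene of the list, was lower in the HES1 sample. Its brighter probe had 2115 with GFP and 1076 with HES1, a log2 difference of -0.97 that fell just inside 2-fold. Its second probe had 1997 and 987, a difference of -1.02 just past 2-fold. The T-type genes of the list therefore lay on opposite sides of 0 by all 4 of their probes. Cacna1i, a T-type pore gene outside the list, had 197 and 203 (0.04), and its other probe gave 0.32. Cacna1a, the P/Q-type pore, had 1606 and 1339 (-0.26, technical error 0.20), and its second probe gave -0.12. Cacna1c, the L-type pore of heart and smooth muscle, lay just above the detection limit at 47.1 and 55.8 (0.25, technical error 0.41). Just below that limit, Cacna1d, another L-type pore, had 26.1 and 35.5 by its brighter probe, and Cacna1b, the N-type pore, had 30.9 and 31.8.

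All 7 auxiliary subunits were measured, and the 3 alpha2delta genes went different ways. Cacna2d1, a target of gabapentin, had 1693 with GFP and 850.3 with HES1. Its log2 difference of -0.99 lay inside 2-fold by a narrow margin, and its second probe gave -0.83 (608 and 342). Cacna2d2, also bound by gabapentin, went the other way, from 176 to 333, a difference of 0.92 with a technical error of 0.22. A second Cacna2d2 probe stayed at background in both samples (9.24 and 9.31). Cacna2d3 had 109 with GFP and 12.5 with HES1, a signal at background, which gave a bound of 2.81-fold lower in the HES1 sample. Under normexp its log2 difference was -0.72, inside 2-fold.

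The beta subunit genes also divided. Cacnb4 had the largest positive difference of the list, 47.4 in GFP cells and 216 in HES1 cells, a 4.56-fold difference with a technical error of 0.33 on its log2 value of 2.19. Its signal was well above background on both arrays, but close to the lowest such signal on the GFP array, 38.1. Under a normexp background correction its log2 difference was 0.94. Cacnb2 lay at background with GFP (27.7) and reached 57.8 with HES1, a bound of 1.51-fold higher. Under normexp the Cacnb2 difference was 0.14. Its second probe, 20.6 and 37.0, lay at background in both. Cacnb1, the beta subunit of skeletal muscle channels, was lower, with 400 and 240.3 (-0.73), and Cacnb3, with 2285 and 1796, had a difference of -0.35 and a technical error of 0.20.

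Store release runs through inositol trisphosphate receptors and, in excitable cells, ryanodine receptors. The inositol trisphosphate receptor genes were all well above background and within 2-fold. Itpr2 was the one that differed by more than 2 technical errors, at 10458 in GFP cells and 18360 in HES1 cells (0.81, technical error 0.20). Itpr1 had 5895 and 6904 (0.23, technical error 0.20). Itpr3 was spotted 10 times on each array and gave the most precise value of the list: the GFP spots ran from 13024 to 14338 with a median of 13646, and the HES1 spots from 13039 to 13697 with a median of 13341. These ranges overlapped, and the mean log2 difference was -0.03 with an SD of 0.06 between spots. Ryanodine receptor genes were not seen, with 15.8 and 33.3 for Ryr1, the skeletal muscle form, and 31.3 and 14.8 for Ryr2, the cardiac form.

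The 5 genes of store-operated entry were all below 0, where 55.0% of all measured genes lay, and none was past 2-fold. Orai1, at -0.07, turned to 0.07 after a loess fit that moved the median of all genes by 0.14. With both arrays required, 4 of the 5 lay below the all-gene median. Their median log2 difference was -0.63, against -0.06 for all measured genes, and their difference from the all-gene median was -0.57 by the main scaling, -0.55 after the loess fit and -0.35 under normexp. Orai2, a pore subunit of the store-operated channel, had the lowest value, with 3014 for GFP and 1513 for HES1. Its log2 difference was -0.99, and its second probe gave -0.92 (2813 and 1492). Stim1, the main calcium sensor of the endoplasmic reticulum, had 6852 and 4134, a difference of -0.73, and its second probe gave -0.67. Stim2, the sensor of small store losses, had 517 and 334, a difference of -0.63. These 3 genes differed by more than 2 technical errors.

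The other pore subunits of that channel differed less. Orai3 had 6214 with GFP and 5249 with HES1 (-0.24), and its 3 probes ran from -0.26 to -0.14. Orai1, the principal pore of this current in most mouse cells, had 330 and 313 by its brighter probe (-0.07, technical error 0.21) and 219 and 179 by its second probe (-0.29). With 5 genes and 1 array per group this describes these samples and sets the group apart from no other.

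**Figure D2:**
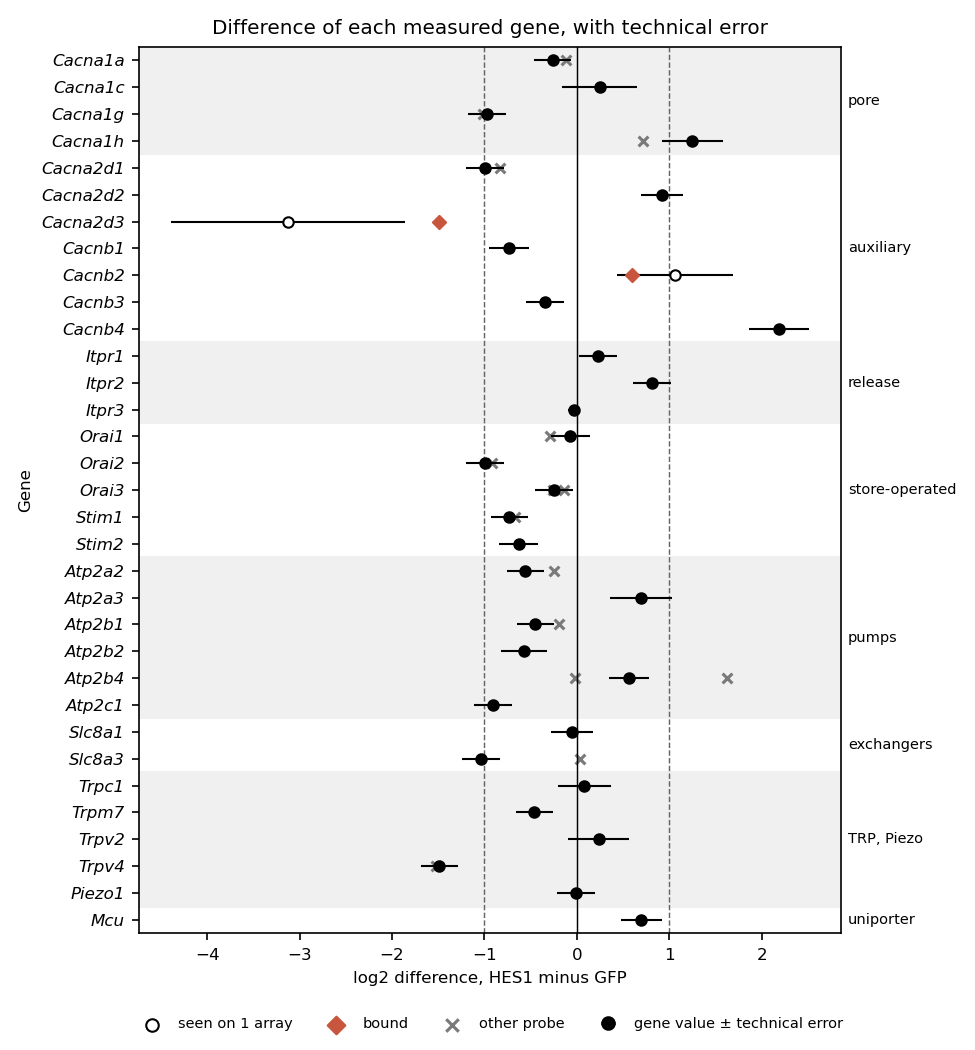
Log2 difference, HES1 minus GFP, of the 33 measured genes by role, with bars for ± 1 technical error from the scanner's error model. Dashed lines mark 2-fold, crosses mark a gene's other measured probes, open circles mark genes seen on 1 array, and diamonds mark their bounds. All 5 store-operated genes lie left of 0 (from -0.99 to -0.07), where 55.0% of all measured genes lie. Slc8a3 and Atp2b4 have probes that lie far apart.

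Calcium pumps lay within 2-fold for all 6 genes, with a median of -0.50 and a range from -0.91 to 0.69. Of the 6, 4 were below 0 (66.7%) and 2 above, against 55.0% of all measured genes below 0. Atp2c1, which loads calcium and manganese into the Golgi, had 3483 with GFP and 1853 with HES1, a log2 difference of -0.91. Atp2a2, the main pump that fills the endoplasmic reticulum (SERCA2), had 1277 and 869 (-0.56), and its second probe gave -0.25. Atp2a3, another pump of that membrane, went the other way from 53.1 to 85.7, a difference of 0.69 with a technical error of 0.34. Under the normexp correction the Atp2a3 value was 0.09.

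Plasma membrane pumps expel calcium from the cell, and their genes did not move together. Atp2b1, the ubiquitous form, had 2328 with GFP and 1708 with HES1 (-0.45), and its second probe gave -0.20. Atp2b2, known from hair cells and neurons, had 201 and 136 (-0.57) by the probe that was seen, while its other probe lay at background (10.6 and 10.5). Atp2b4 had 3 probes that disagreed. The brightest had 180 and 266 (0.57), and a second had 63.0 and 62.2 (-0.02). The remaining one, assigned to another transcript record, was seen only with HES1 and gave a bound of 1.81-fold higher (22.4 and 69.1). The second probe's difference lay within its technical error of 0.37, while the other 2 probes were higher with HES1. The size of the Atp2b4 difference therefore depended on the probe.

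Sodium/calcium exchangers use the sodium gradient to remove calcium. Slc8a3 (NCX3) was past 2-fold by its bright probe, with 10193 for GFP and 4972 for HES1, a log2 difference of -1.04 and a technical error of 0.20. Its other probe, assigned to the same transcript record, had 101 and 103, a difference of 0.04. Both Slc8a3 probes were well above background on both arrays, so its place among the genes past 2-fold rested on 1 probe. Its value was -0.89 after a loess fit, -0.93 under normexp and -0.50 as the median of both probes. Slc8a1 (NCX1), the cardiac and widely expressed form, had 188 and 181 (-0.05, technical error 0.23).

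Trpv4 had the largest negative difference among the measured genes seen on both arrays. This cation channel opens on osmotic swelling and mechanical load, is abundant in cartilage, and carries human skeletal dysplasia mutations. Its brighter probe had 5565 with GFP and 1987 with HES1, which is 2.80-fold lower, and its second probe had 993 and 347, which is 2.87-fold lower. The log2 differences of -1.49 and -1.52 each had a technical error of 0.20 to 0.21, and over the alternative settings the gene's value ran from -1.50 to -1.35. In the same RNA, the 12 measured chondrocyte markers had a median of -0.33, with 10 below 0 and 2 above. They ran from -1.36 to 3.42, with Col2a1 at -0.90 and Sox9 at -0.19. The part of these markers in the Trpv4 difference was not tested.

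Piezo1, the mechanically gated channel described together with TRPV4 in chondrocytes, had nearly equal signals of 42489 and 42319 (-0.01, technical error 0.20). Its relative Piezo2, which is not on the list, had 252 with GFP and 112 with HES1, 2.25-fold lower, while its other 2 probes lay at background in both. Trpm7, a channel fused to a kinase that also carries magnesium, had 7202 and 5238 (-0.46). Trpv2 (74.7 and 87.9) and Trpc1 (103 and 109) lay within 1 technical error of 0. Trpc6, a channel opened by diacylglycerol, was not well above background, at 8.86 and 14.6. Mcu, the pore of the mitochondrial uniporter, had 209 and 339, a difference of 0.70 with a technical error of 0.22, and 0.40 under normexp.

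Taken as a distribution, the measured genes had a median log2 difference of -0.24, against -0.06 for all measured genes, and 21 of 33 (63.6%) were below 0, against 55.0%. The gap between the medians, -0.18, was -0.09 under normexp and -0.07 with all dim probes let in. At a lower threshold of 1.5-fold, 10 were lower (30.3%) and 7 higher (21.2%), against 14.6% and 17.4% of all genes, or 32.0% in either direction. At 2 technical errors from 0, 14 were lower (42.4%) and 7 higher (21.2%), against 21.9% and 19.1% of all genes, or 41.0% in either direction. This error covers the scanner's measurement only, with a median of 0.20 for the list, and leaves out differences between cultures. Of 13 genes with at least 2 measured probes, 11 had all probes on the same side of 0, the exceptions being Slc8a3 and Atp2b4, and 9 had all probes on the same side of the 2-fold threshold.

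**Figure D3:**
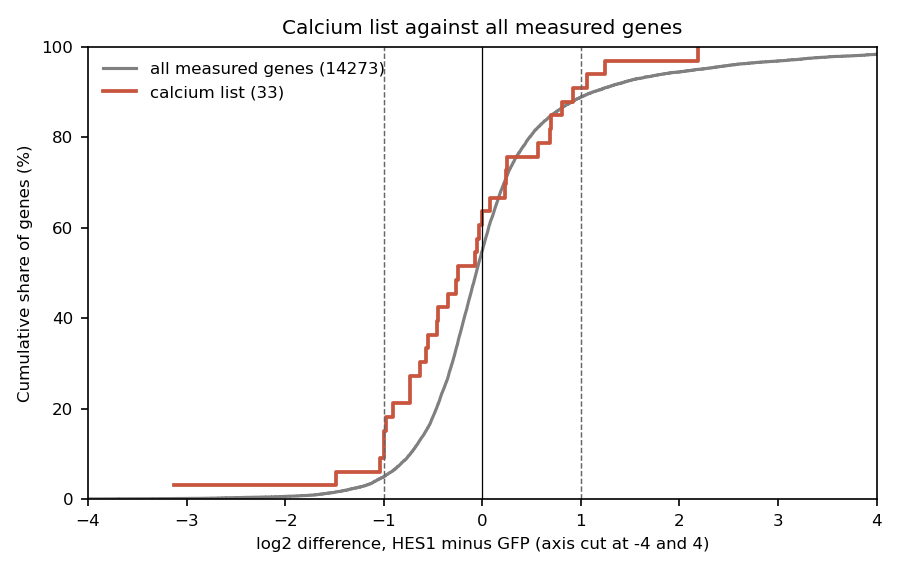
Cumulative share (%) of genes by log2 difference, HES1 minus GFP, for the 33 measured calcium genes (red) and all 14273 measured genes (grey), with dashed lines at 2-fold. The calcium genes run to the left of all genes between -1 and 0, with medians of -0.24 and -0.06, and end before the long right tail of the other genes.

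In 7 further lists of calcium genes, 111 genes were measured, of which 10 (9.01%) passed 2-fold upward and 5 (4.50%) downward, near the 11.1% and 4.95% of all genes, with a median of -0.04. The counts below rest on 0 to 3 genes per list and direction and are to be read against those shares. The lists were chosen with earlier results of these samples known. Among 14 measured relatives of the listed genes, 3 (21.4%) were higher and 1 (7.14%), Piezo2, was lower (2 and 1 by bounds), with a median of 0.42, or 0.23 by bounds. That median was 0.12 under normexp, 0.21 with both arrays required and 0.04 without a filter on dim probes. Trpm6, a magnesium and calcium channel, was 2.74-fold higher at 980.3 against 358. Trpv1, the capsaicin receptor, lay at background with GFP and gave a bound of 1.19-fold higher for HES1.

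Genes that bind calcium in the endoplasmic reticulum or regulate its channels had a median of 0.02 over 30 measured, with 1 higher (3.33%) and 2 lower (6.67%). Itprip, a protein that binds inositol trisphosphate receptors, was 2.10-fold higher at 19331 against 9216. Bok, a BCL2 relative that also binds these receptors, was 2.35-fold lower at 6177 against 14513, and Tmem38a, a potassium channel of the store that balances charge during release, was 2.09-fold lower. Of 15 phospholipase C and inositol trisphosphate enzymes, 3 (20%) were higher and 0 lower, with a median of -0.09, against 11.1% and 4.95% of all genes. Itpka, a kinase that phosphorylates inositol trisphosphate, was 6.19-fold higher at 677 against 109, and Inpp1, an inositol phosphatase, was 3.23-fold higher. Itpkb, another such kinase, gave a bound of 2.85-fold higher by the probe that stands for it, seen only with HES1. Its other probe gave -0.39. Plcl1, a phospholipase C relative without lipase activity, had -0.74 by its brighter probe, while its other probe gave a bound of 2.52-fold lower.

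Mitochondrial calcium genes had a median of -0.07 over 15 measured, with 2 higher (13.3%) and 1 lower (6.67%), or 2 and 0 by bounds. Slc25a25, a calcium-sensitive ATP and phosphate carrier, had 847 with GFP and 3782 with HES1, a 4.47-fold difference, and 4.66-fold by its second probe. Slc8b1, the mitochondrial sodium/calcium exchanger, was 2.46-fold higher. Efhd1, a calcium-binding mitochondrial protein, had a bound of 1.87-fold lower. Among 8 lysosomal and ciliary genes the median was -0.23, and Pkd1, the polycystin that pairs with the Pkd2 channel, was 2.28-fold lower at 5788 against 13203.

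P2rx7, an ATP-gated cation channel of immune and skeletal cells, had the largest difference of these lists by the probe that stands for each gene. It was 22.1-fold higher in the HES1 sample by its brightest probe, 5.20-fold by a second, and the remaining one lay at background with GFP (38.5 and 185). The other 10 measured purinergic channels, Slc24a exchangers and related transporters lay within 2-fold, and the list's median was 0.02. By the probe that stands for each gene, the 18 measured cytosolic calcium buffers and sensors lay within 2-fold, with a median of -0.08, and Gca, a calcium-binding protein of granulocytes, had the largest size at 0.76. Hpca, a calcium sensor known from hippocampal neurons, had probes that disagreed. Its brighter probe had 2043 with GFP and 3248 with HES1 (0.67). Its other probe had 16.1, at background, and 749, a measured log2 difference of 5.54 and a bound of 19.6-fold higher.

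**Figure D4:**
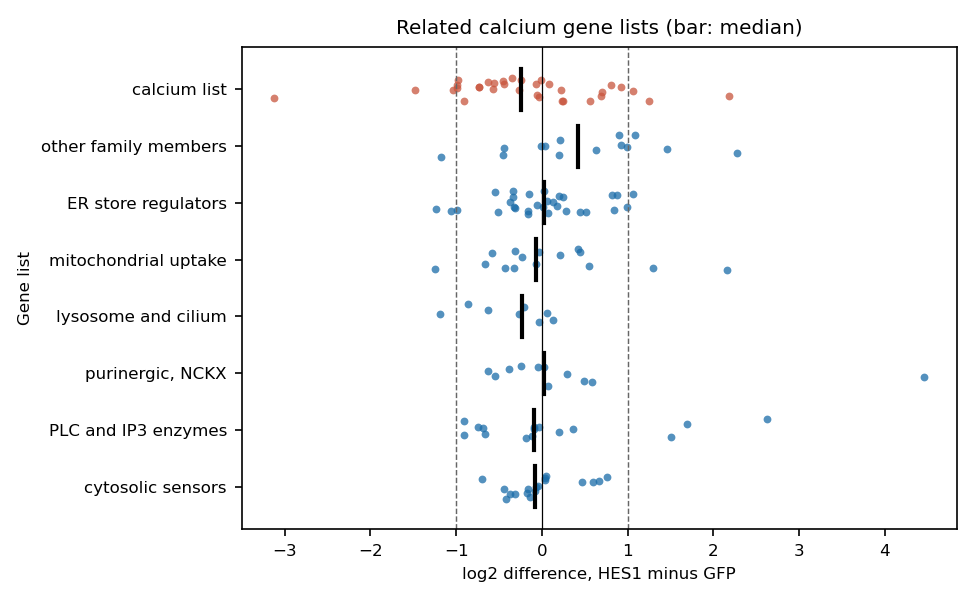
Log2 difference, HES1 minus GFP, of each measured gene in the calcium list (red) and in 7 related lists (blue), with black bars for medians and dashed lines at 2-fold; NCKX names the Slc24a exchangers and vertical scatter within a list carries no meaning. Medians run from -0.24 for the calcium list to 0.42 (0.23 by bounds) for the other family members, and the point at 4.46 is P2rx7.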

How the data were processed

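Gene expression was measured on 2 arrays, 1 for each ATDC5 line. Per the file headers, both were 1-colour Agilent arrays of 1 design annotated on mm9, on the same slide, read with Agilent Feature Extraction 10.10.1.1. The deposited scanner files hold an intensity per spot from which that software had removed background and spatial trend, per the file headers, and the arrays were not yet set to a shared scale. The authors' deposited value table holds the same intensity times 1 factor per array (1.45 and 1.53), which set both 75th percentiles to 1057.2.

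Each array's log2 processed signals were lowered by their own 75th percentile, taken over 59305 non-control spots. Spots with an outlier flag on either array (1053) were left out, none was saturated, and spots of a probe were averaged. Accessions were named through RefSeq genes of GRCm38.p6, for names only, which named 26869 of 54948 probes. A gene's brightest probe well above background on at least 1 array stood for it. For a gene seen on 1 array, a bound replaced the dim signal with the detection limit of its array where the limit was higher. That limit was the lowest signal with the scanner's flag, 38.1 for GFP and 39.0 for HES1. Some signals without the flag lay above it, such as Itpkb with GFP (48.8), so a bound is not a guaranteed minimum. Technical error combined the scanner's error of both arrays. Precision is limited by the number of arrays.

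The named genes were all 39 members, up to 4 genes past 2-fold per related list or else the largest, Hes1, Col2a1, Acan and Sox9. 1 gene that this rule names is not reported here. Members, lists and settings were chosen with earlier results of these data known. Myod1, Myog, Ckm, Acta1, Tnnc2, Actn3, Tnni2, Myh8, Tnnt3, Snap25, Tnnt2, Tnni3, Itgam, Cacna1i, Hpca and Plcl1 were named after their values were seen. The calculation was tested on simulated data. Python 3.11.15 and limma 3.58.1 were used.

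The alternatives were quantile normalization, median scaling, loess (span 0.3), normexp (offset 50) on median spot signals, the authors' value table, a stricter and no filter on dim probes, a median over probes, outlier spots kept, and other fold thresholds.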

Additional observations from a re-analysis of the deposited data

How the results depend on the processing

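The median of the measured calcium genes kept its sign under all 9 alternatives to scaling, background, filter and probe choice, from -0.24 to -0.06, the latter without a filter on dim probes. Under normexp with quantile normalization, 0 of these genes passed 2-fold upward and 1 downward, against 3 and 3. Over all genes the counts under normexp were 850 and 339 against 1582 and 707, and with both arrays required 920 and 577. A threshold of 1.5-fold gave 7 higher and 10 lower (21.2% and 30.3%, against 17.4% and 14.6% of all genes). One of 3-fold gave 1 and 1, and no all-gene share was computed there. The lower gene was Cacna2d3, whose bound of 2.81-fold lay inside that threshold. Of the 6 genes past 2-fold, Trpv4 alone stayed past it under all alternatives that gave it a value. Normexp gave 0.94 for Cacnb4, 0.37 for Cacna1h, 0.14 for Cacnb2 and -0.72 for Cacna2d3, and the median over probes gave 0.98 for Cacna1h. These are dim on at least 1 array; the cause was not tested. For related lists, the number past 2-fold in either direction changed by more than 1.5 times in these cases. Relatives of the listed genes went from 4 to 7 under loess, 1 under normexp and 7 without a filter. Mitochondrial genes went from 3 to 1 under normexp, lysosomal and purinergic lists from 1 to 2 each without a filter, and cytosolic sensors from 0 to 1 (Hpca) by the median over probes. No paired analysis was possible because each group held 1 array. For the same reason no array could be left out.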
